A study of Mus musculus with 4 samples.

Results

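The 10 genes described here were receptors, signal carriers and targets of the bone morphogenetic protein (BMP) pathway in injured mouse muscle. They were the receptors Acvr1, Bmpr1a, Bmpr1b and Bmpr2, the signal carrier Smad1, the inhibitory Smads Smad6 and Smad7, and the target genes Id1, Id2 and Id3. They were found by symbol among the 32285 features of the count tables, and each symbol matched 1 feature. All 10 had at least 50 unique molecular identifiers (UMIs, counted RNA molecules) over the study, a level reached by 14716 features. RNA was captured from fresh frozen sections of tibial muscle on spots that each cover several cells, with 1 section per time point. The mice were Nse-Bmp4 animals of the C57BL/6 strain, 6 to 8 weeks old. Their transgene places a mouse Bmp4 cDNA behind a rat neuron-specific enolase promoter, and injured muscle of these mice turns in part to bone. The first time point was uninjured muscle (day 0), and the others followed injury by 1, 3 and 7 days, which the study caused with cardiotoxin, a venom protein that kills myofibres. All 4 sections carried the transgene, and no section of a mouse without it was analysed here. The labels state that 3 muscles were mixed for a group, but not which of them a section holds. With 1 section per day there was no spread between animals to measure, so no p-value is given, and every interval below covers counting error only.

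BMP ligands such as BMP4 bind a complex of type I receptors (among them those encoded by Acvr1, Bmpr1a and Bmpr1b) and type II receptors (among them that of Bmpr2). The type II kinase switches on the type I kinase, which phosphorylates SMAD1, SMAD5 and SMAD9. These join SMAD4, enter the nucleus and switch on genes, among which Id1, Id2 and Id3 respond within hours. ID proteins bind and block basic helix-loop-helix transcription factors such as MYOD1, and so hold back muscle differentiation. SMAD6 and SMAD7 are made in response to the same signals and block them at the receptor. Activating mutations of ACVR1 cause fibrodysplasia ossificans progressiva, a disease in which muscle turns to bone.

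The Id genes showed the widest changes of the 10, so the DNA before their starts is shown. Promoter windows from RefSeq (GRCm38.p6) were given for 8 of the 10 genes, Id2 and Id3 among them, and the 250 bases before the annotated start are printed 5′ to 3′. Capitals mark GGCGCC, a motif bound by SMAD1 and SMAD5 complexes, and GTCTG or its reverse complement CAGAC, the core of the SMAD binding element, on either strand.
Id2, chr12:25096093-25096342, reverse strand: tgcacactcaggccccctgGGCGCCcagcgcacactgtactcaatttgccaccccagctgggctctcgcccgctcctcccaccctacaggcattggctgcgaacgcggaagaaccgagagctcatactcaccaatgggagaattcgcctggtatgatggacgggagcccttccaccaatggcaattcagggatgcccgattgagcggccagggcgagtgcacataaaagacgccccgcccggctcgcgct
Id3, chr4:136143572-136143821, forward strand: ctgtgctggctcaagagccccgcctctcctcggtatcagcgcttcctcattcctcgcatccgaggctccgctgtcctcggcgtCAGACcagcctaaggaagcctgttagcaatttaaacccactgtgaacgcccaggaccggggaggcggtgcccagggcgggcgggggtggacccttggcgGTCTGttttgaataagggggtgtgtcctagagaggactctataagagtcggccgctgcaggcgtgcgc
The Id2 window held GGCGCC 1 time and the Id3 window held the GTCTG core 2 times. Of windows of the same length for 27025 genes, 9.54% held GGCGCC and 42.1% held GTCTG or CAGAC, so neither match alone was particular to these genes. No share was taken for windows with 2 matches. The windows of Bmpr1a and Bmpr2 also held GGCGCC 1 time each, and that of Bmpr1b held CAGAC 1 time, and those of Acvr1, Smad1 and Smad6 held neither motif. The windows of Bmpr1a and Bmpr1b lay inside the annotated spans of these genes and not before them, and that of Smad6 lay partly inside its span. Id2 lies at chr12:25093799-25096092 and Id3 at chr4:136143822-136145392. Id1, at chr2:152736251-152737410, lies on the chromosome that also holds Acvr1 (chr2:58446438-58566828).

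The sections held 2107, 2667, 3029 and 3032 spots at days 0, 1, 3 and 7 and from 16777832 (day 1) to 56113066 (day 3) UMIs. Day 1 was the shallowest, with a median of 6322 UMIs per spot against 12119.5 to 21029 on the other days. Levels are given as CPM, the UMIs of a gene in 1000000 UMIs of the section. The tissue label was borne out by 14 adult myofibre markers, which took 28.7%, 15.7%, 9.45% and 16.7% of UMIs in the order of days. These shares move with the day, as do 12 monocyte/macrophage markers (375, 1663, 8577 and 2022 CPM in all) and 12 chondrogenic markers (7.59, 5.96, 8.07 and 1959 CPM), and spots of like myofibre share are compared below. In bulk sums over spots, fewer cells of a type and less RNA per cell cannot be told apart. The sections shared 1341 of 4078 distinct spot barcodes, which mark positions on a slide and not cells.

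Id RNA was higher in every injured section than in the uninjured one. Id3 had 33.6 CPM in uninjured muscle (31.9 to 35.3, exact 95% Poisson interval), 91.7 at day 1 (87.2 to 96.4), 177 at day 3 (173 to 180) and 186 at day 7 (182 to 190). It was 2.73 times its day 0 level at day 1 (95% interval 2.54 to 2.94), 5.27 times at day 3 (4.98 to 5.57) and 5.53 times at day 7 (5.23 to 5.85), so most of the difference was in place by day 3. Id2 had 6.13 CPM at day 0 (5.42 to 6.91), 18.7 at day 1 (16.7 to 20.9), 67.8 at day 3 (65.7 to 70.0) and 37.4 at day 7 (35.6 to 39.3). Its ratio to day 0 went from 3.05 (2.59 to 3.61) at day 1 to 11.1 (9.77 to 12.6) at day 3 and 6.10 (5.36 to 6.97) at day 7. Id2 thus peaked at day 3, and its day 7 level was 0.552 times that of day 3 (0.520 to 0.585). Id1 had 24.0 CPM at day 0 (22.6 to 25.5), 61.3 at day 1 (57.6 to 65.1), 89.8 at day 3 (87.3 to 92.3) and 60.0 at day 7 (57.6 to 62.3). Its ratios were 2.55 (2.34 to 2.78), 3.73 (3.49 to 3.99) and 2.49 (2.32 to 2.68). The day 1 and day 7 levels of Id1 were not told apart by their intervals, while Id3 at day 7 was 1.05 times its day 3 level (1.02 to 1.08).

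**Figure D1:**
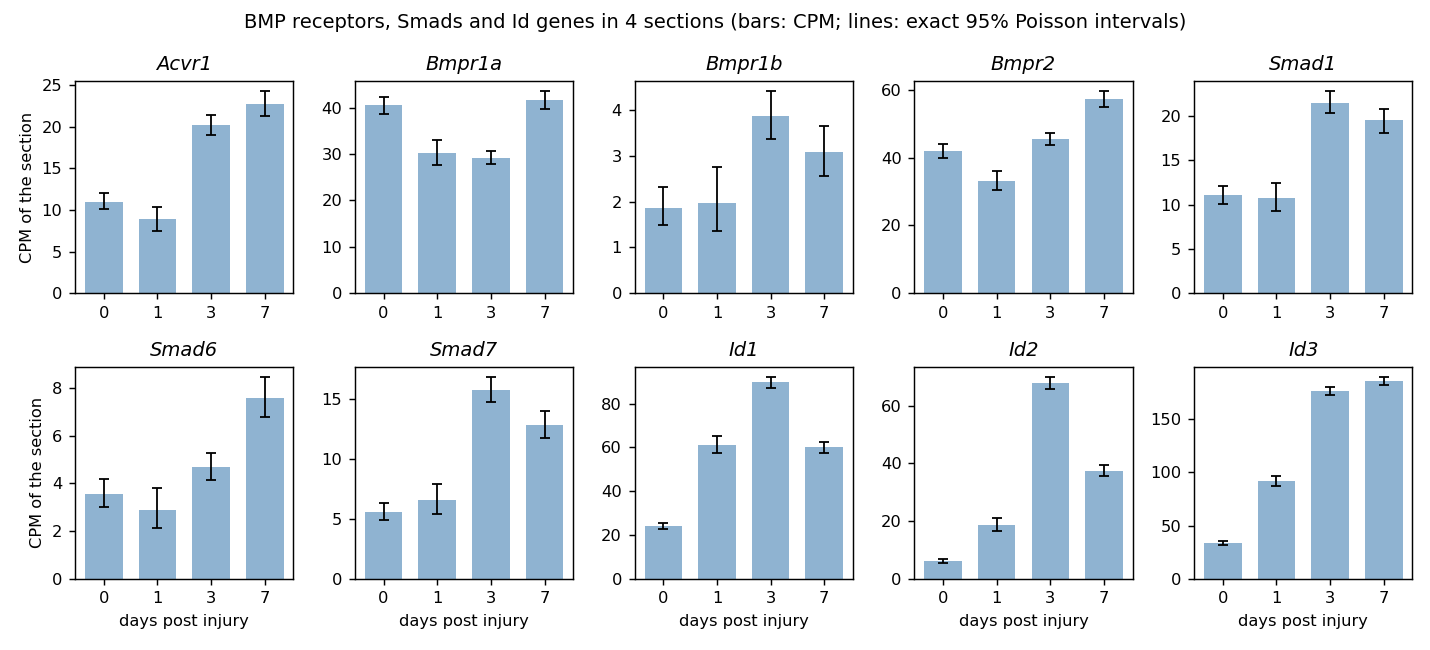
Level of each of the 10 genes in the section of each day (y axis, CPM, a scale of its own in each panel starting at 0; x axis, days post injury); bars are CPM and lines are exact 95% Poisson intervals. Id1, Id2 and Id3 are higher at days 1, 3 and 7 than at day 0, while Bmpr1a is at 40.5, 30.3, 29.2 and 41.6 CPM.

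The receptors moved less and not together. Bmpr1a, a type I receptor for BMP2 and BMP4, had 40.5 CPM at day 0 (38.6 to 42.4), 30.3 at day 1 (27.7 to 33.0), 29.2 at day 3 (27.8 to 30.7) and 41.6 at day 7 (39.7 to 43.6). It was lower at days 1 and 3, at 0.748 (0.676 to 0.826) and 0.722 (0.674 to 0.772) times day 0, and was near its day 0 level at day 7, at 1.03 times (0.962 to 1.10) on the CPM scale. Scaled instead with edgeR's TMM factors, which centre on the bulk of the genes, its day 7 log2 ratio was -0.57. Bmpr2, the type II receptor, had 41.9 CPM at day 0 (40.0 to 43.9), 33.2 at day 1 (30.5 to 36.1), 45.4 at day 3 (43.7 to 47.2) and 57.3 at day 7 (55.0 to 59.6). Its ratio to day 0 was 0.792 at day 1 (0.719 to 0.871), 1.08 at day 3 (1.02 to 1.15) and 1.37 at day 7 (1.28 to 1.45), and the values of days 3 and 7 were below 1 with TMM factors or DESeq2's size factors, and that of day 3 also with a total that leaves out the RNA of mitochondria, blood haemoglobin and myofibres. Acvr1, the type I receptor also known as ALK2, had 11 CPM at day 0 (10.1 to 12.1), 8.88 at day 1 (7.51 to 10.4), 20.2 at day 3 (19.0 to 21.4) and 22.8 at day 7 (21.3 to 24.3). Its ratios were 0.805 (0.665 to 0.969), 1.83 (1.64 to 2.04) and 2.06 (1.85 to 2.31), so it was the only receptor of the 4 to be 2-fold higher at day 7 on the CPM scale. Bmpr1b, the other type I receptor, was thinly counted, with 82, 33, 217 and 129 UMIs and 1.87 (1.49 to 2.32), 1.97 (1.35 to 2.76), 3.87 (3.37 to 4.42) and 3.08 (2.57 to 3.66) CPM. Its ratio was 2.07 at day 3 (1.60 to 2.70) and 1.65 at day 7 (1.24 to 2.20).

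Smad1 and the inhibitory Smads were higher from day 3 on by CPM. Smad1 had 11.1 CPM at day 0 (10.1 to 12.1), 10.7 at day 1 (9.22 to 12.4), 21.5 at day 3 (20.3 to 22.8) and 19.5 at day 7 (18.1 to 20.8). Days 0 and 1 were alike within counting error, and the ratio to day 0 was 1.94 at day 3 (1.75 to 2.16) and 1.75 at day 7 (1.56 to 1.97). Smad7, which also blocks TGF-beta signals, had 5.56 CPM at day 0 (4.89 to 6.31), 6.62 at day 1 (5.44 to 7.97), 15.8 at day 3 (14.8 to 16.9) and 12.9 at day 7 (11.8 to 14.0). Its ratio was 2.84 at day 3 (2.46 to 3.29) and 2.32 at day 7 (1.99 to 2.71). Smad6, which acts mainly on BMP receptors, had 3.56 CPM at day 0 (3.02 to 4.16), 2.86 at day 1 (2.11 to 3.79), 4.67 at day 3 (4.12 to 5.27) and 7.58 at day 7 (6.77 to 8.46). It was highest at day 7, at 2.13 times day 0 (1.75 to 2.60). The inhibitory Smads thus had different orders of days: Smad7 at day 7 was 0.817 times its day 3 level (0.732 to 0.910), and Smad6 1.62 times (1.37 to 1.92). The day 3 value of Smad6, 1.31 times day 0 (1.07 to 1.61), was below 1 under those 3 other scalings.

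Of the 10 genes, 3 were at least 2-fold above day 0 at day 1 (the Id genes), 5 at day 3 (the Id genes, Smad7 and Bmpr1b) and 6 at day 7 (the Id genes, Smad6, Smad7 and Acvr1). Over all 14716 features with at least 50 UMIs, 18.2% were 2-fold higher at day 1, 31.8% at day 3 and 31.0% at day 7. None of the 10 was 2-fold lower on any day, where 11.2%, 7.37% and 1.49% of all features were. The median log2 ratio of the 10 was 0.01 at day 1, 1.00 at day 3 and 1.07 at day 7, beside 0.17, 0.57 and 0.65 over all features. These comparisons share the day 0 section, so a value of that section enters all 3. With TMM factors the log2 ratios of all features moved by -0.21, -0.55 and -0.61 on days 1, 3 and 7, and 3, 3 and 2 of the 10 genes were then 2-fold higher, beside 14.2%, 18.9% and 14.1% of all features. Id2 and Id3 were 2-fold higher on all 3 days on that scale too, with log2 ratios at day 7 of 2.0 and 1.86.

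Spot by spot the Id genes were found more widely after injury. In the order of days, 41.2%, 35.4%, 77.0% and 65.6% of spots had an Id3 UMI, but these shares follow the depth of the section. With each spot thinned at random to 2000 UMIs, the shares were 6.08% (exact 95% interval 5.09 to 7.19), 15.6% (14.1 to 17.2), 25.3% (23.8 to 26.9) and 24.3% (22.7 to 25.9). Thinning left out 17, 513, 9 and 84 spots that were shallower. The thinned shares of Id1 were 4.17%, 11%, 13.7% and 10.2%, against 32.8%, 27.0%, 60.1% and 42.7% of unthinned spots. Those of Id2 were 1.21%, 4.32%, 9.81% and 6.12%, against 10.3%, 10.2%, 43.5% and 27.8%. The order of days in the thinned shares was that of the CPM for each Id gene except days 3 and 7 of Id3, whose intervals overlap. Bmpr1b was seen in 0.434% to 0.856% of thinned spots with overlapping intervals on all 4 days, so no order was read. Of 10 genes of other organs, used as a background for free RNA, 9 lay at or under 0.156% on each day. The exception was Cyp2e1, found in up to 2.54%, which fat also makes and which led the fat region of each of days 0, 1 and 7.

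Against day 0, Id RNA differed less among spots with at least 10% of their UMIs in the myofibre markers than between whole sections. The class under 10% held 3 spots at day 0, so no ratio to day 0 was taken there. In that class Id3 was at 143, 228 and 465 CPM at days 1, 3 and 7, against 91.7, 177 and 186 over whole sections. Id1 was at 97.8, 113 and 126 CPM there and Id2 at 41.7, 107 and 104 CPM. In spots with 10 to 25% of their UMIs in the myofibre markers, of which there were 447 at day 0, Id2 had 11.4, 13.1, 19.1 and 23.5 CPM at days 0, 1, 3 and 7. Its ratio to day 0 in those spots was 1.67 at day 3 (1.36 to 2.08) and 2.06 at day 7 (1.69 to 2.54), beside 11.1 and 6.10 over whole sections. Id3 had 55.3, 79.9, 116 and 128 CPM in the same spots, with ratios of 1.44 (1.30 to 1.61), 2.09 (1.91 to 2.30) and 2.32 (2.12 to 2.55). Id1 had 41.2, 52.5, 62.6 and 47.0 CPM, so its ratio at day 7 was 1.14 (1.02 to 1.28). In spots with over 25% of UMIs in myofibre markers the order was the same for Id3, at 27.1, 55.5, 57.1 and 62.6 CPM, and Id1 was highest at day 1, at 38.1 CPM against 19.0 at day 0. Id RNA was therefore above day 0 also among spots rich in myofibre RNA, by a smaller factor, except for Id2 at day 1. Its interval then included 1 in the 10 to 25% class (1.15, 0.898 to 1.48) and in the over 25% class (4.97 against 4.48 CPM, 1.11, 0.401 to 2.47). The median log2 ratio of all features in the 10 to 25% class was -0.25, -0.07 and 0.26 at days 1, 3 and 7. Id1 at day 7, with a log2 ratio of 0.19, lay below that median. Within the 10 to 25% class the spots still differed: myofibre markers were at 220643, 173107, 160573 and 182975 CPM on the 4 days, monocyte/macrophage markers went from 520 CPM at day 0 to 1365, 3323 and 1756, and the part of this in the Id values was not tested.

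**Figure D2:**
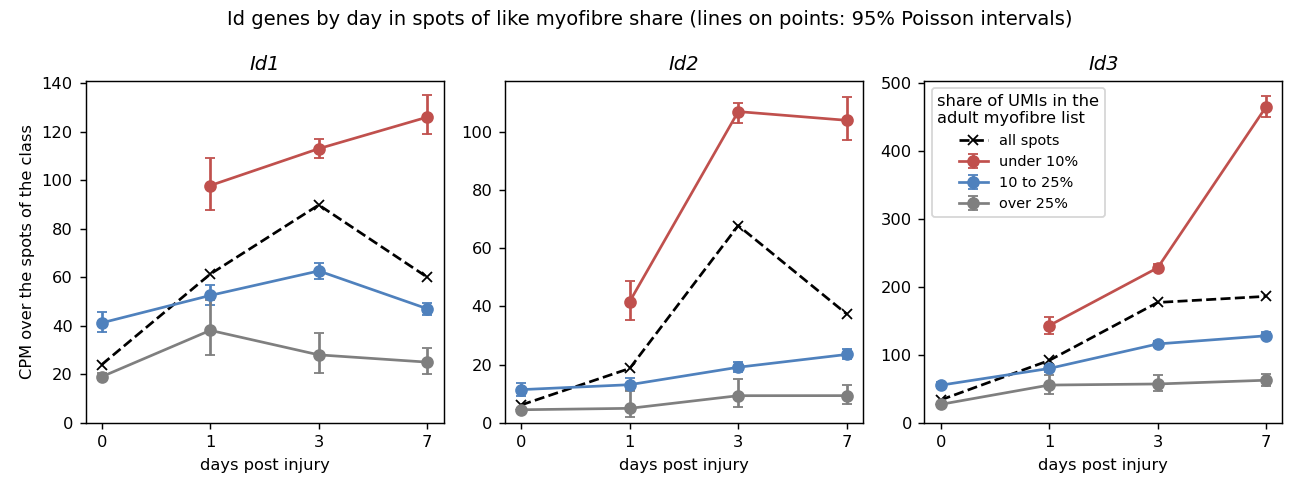
Id1, Id2 and Id3 by day (x axis, days post injury; y axis, CPM over the spots of a class, starting at 0) in spots with under 10%, 10 to 25% and over 25% of UMIs in the adult myofibre list, with 95% Poisson intervals; crosses give all spots of the section. The class under 10% is not drawn at day 0, where it held 3 spots. In each class drawn Id3 is higher at day 7 than on the earlier days.

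The other genes behaved differently in spots of like myofibre share. Smad7 (7.77, 6.02, 20 and 12.1 CPM) and Bmpr1b (2.07, 2.26, 5.84 and 3.42 CPM) kept ratios at day 3 of 2.58 (2.02 to 3.34) and 2.82 (1.75 to 4.76). In spots with over 25% myofibre RNA the day 3 ratios were 3.18 for Smad7 (2.03 to 4.79) and 3.59 for Bmpr1b (1.70 to 6.88), on 27 and 11 UMIs at day 3. These genes were thus higher at day 3 within myofibre-rich spots by about as much as over the section. Acvr1 had 15 CPM at day 0 and 17.3 at day 3, with a ratio of 1.15 (0.947 to 1.40) in place of 1.83. Smad6 had 4.77 and 5.24 CPM at days 0 and 7, with a ratio of 1.10 (0.787 to 1.56) in place of 2.13. Over spots of the 10 to 25% class, 0, 3 and 2 of the 10 genes were 2-fold higher at days 1, 3 and 7, beside 9.10%, 10.2% and 12.2% of all features. This comparison was chosen after the data were seen.

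To see where in a section the genes lay, the spots of each section were grouped by their RNA into regions, with the 10 genes, all listed pathway and marker genes and mitochondrial and haemoglobin genes left out of the grouping. There were 5, 7, 8 and 9 regions at days 0, 1, 3 and 7, each of at least 20 spots. Regions are named below by their leading genes or by a marker list that is high in them, not as cell types. Id3 ranged from 22.5 to 42.4 CPM over the regions of day 0, from 44.1 to 242 at day 1, from 90.7 to 430 at day 3 and from 64.8 to 599 at day 7. All 24 regions of injured sections lay above the highest region of day 0, as was so for 1.5% of all 14716 features, whose median was 12 regions. The same held for 22 of 24 regions for Id1 and for Smad7, 21 for Id2, 17 for Smad1, 15 for Acvr1, 14 for Bmpr1b, 11 for Smad6, 9 for Bmpr2 and 2 for Bmpr1a. For Smad7 the regions of day 1 passed the limit of 6.00 CPM in 5 of 7 cases, on 28 UMIs or fewer each, so its day 1 values were within counting error of day 0. The Id genes were thus higher over most of the injured sections, Smad7 over those of days 3 and 7, and Bmpr1a in few places.

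**Figure D3:**
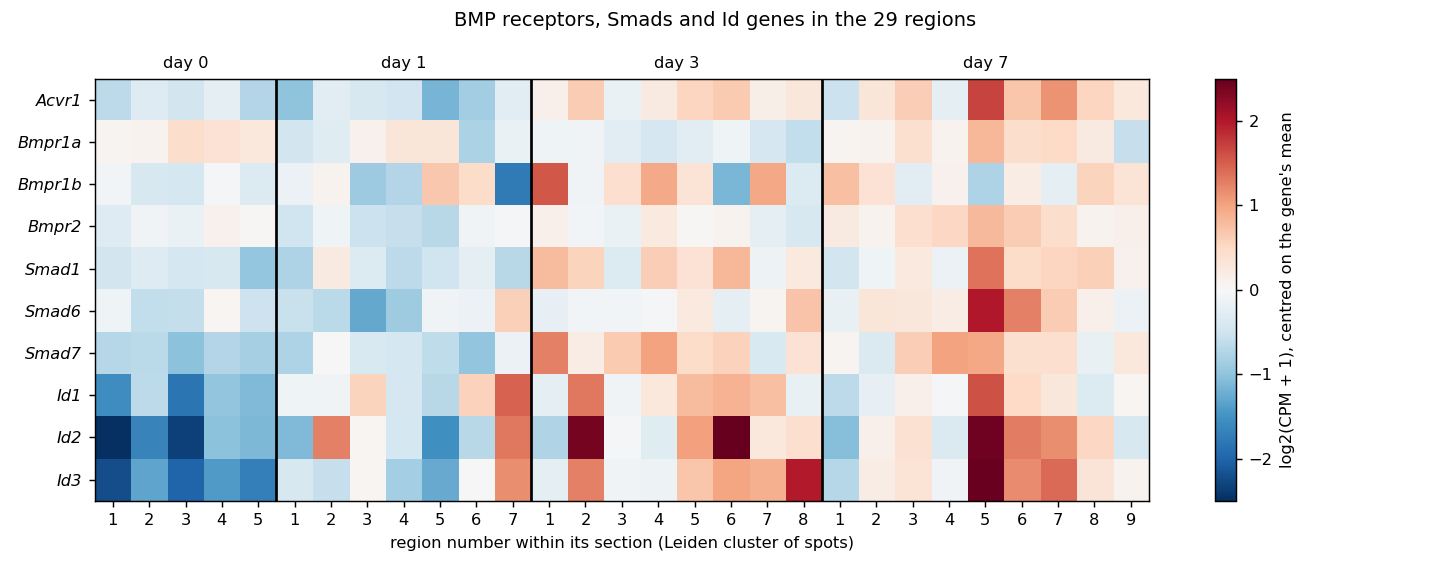
The 10 genes (rows) in the 29 regions (columns, numbered within the section of each day); colour gives log2(CPM + 1) minus the gene's mean over regions, with colours past the ends of the scale drawn as the end colour. Region 5 of day 7 is the highest of its day for 8 of the 10 genes, all except Bmpr1b and Smad7, and Id2 is highest in regions 2 and 6 of day 3 and region 5 of day 7.

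The clearest pattern was in the cartilage-rich region of day 7. This region of 285 spots (9.40% of the section) was led by Meltf, Matn1, Col10a1, Col9a1 and Dlx5, and held 11925 CPM of the chondrogenic markers against 907 in the rest. Id3 had 599 CPM there and 142 elsewhere, a ratio of 4.22 (4.02 to 4.43). Id2 had 125 against 28.2 CPM (4.42, 3.97 to 4.92), and Id1 162 against 49.2 CPM (3.28, 3.00 to 3.59). All 3 Id genes were thus concentrated in this region, which held 30.8%, 31.8% and 25.7% of their UMIs and 9.54% of all UMIs. Smad6, the inhibitory Smad, had 21.8 against 6.08 CPM (3.58, 2.77 to 4.61), Acvr1 50.6 against 19.8 (2.55, 2.17 to 2.99) and Smad1 40.8 against 17.2 (2.37, 1.99 to 2.82). Smad7 (1.72, 1.35 to 2.18), Bmpr1a (1.55, 1.35 to 1.78) and Bmpr2 (1.45, 1.29 to 1.63) stood nearer to the 1.42 that was the median over all features. Bmpr1b went the other way, with 4 UMIs in the region, 1.00 CPM against 3.30 (0.303, 0.0814 to 0.796). In all, 8 of the 10 were at least 1.5-fold higher there, beside 46.3% of 13085 features. The region also held 54482 CPM of mesenchymal stromal cell (MSC) markers, 1898 CPM of osteogenic markers against 278 in the rest, and 39265 CPM of myofibre markers, against 167062 over the section, and a comparison among spots poor in muscle RNA follows. A finer grouping put 93 spots in the richest cartilage region, with 23969 CPM of chondrogenic markers and other cartilage spots now in the rest. There Id3 was 2.17 times the rest (1.92 to 2.45), Id1 2.43 (1.96 to 2.97), Id2 2.5 (1.91 to 3.22) and Acvr1 1.15 (0.679 to 1.83). Levels inside were also lower than in the 285 spots, at 396 CPM for Id3, 142 for Id1, 91.4 for Id2 and 26.1 for Acvr1. Id3 in the rest was at 182 CPM.

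Set against other spots poor in muscle the difference was smaller and did not vanish for the Id genes. Among spots with under 10% myofibre UMIs, 281 lay in the cartilage-rich region and 187 outside it, and the median ratio over features was 1.02. Id3 had 600 CPM inside and 326 outside (1.84, 1.72 to 1.97), Id1 162 and 90.0 CPM (1.80, 1.58 to 2.05) and Id2 125 and 83.3 CPM (1.5, 1.30 to 1.73). Acvr1 (1.69, 1.34 to 2.14) and Smad6 (1.63, 1.14 to 2.34) were also higher inside. The intervals of Bmpr1a (1.13, 0.939 to 1.37), Bmpr2 (1.15, 0.977 to 1.36) and Bmpr1b (0.486, 0.107 to 1.81) included 1. Of the 10 genes, 5 passed 1.5-fold, beside 15.9% of 10961 features. This comparison too was chosen after the data were seen. Without the region, the day 7 section still had 142 CPM of Id3, 4.23 times day 0 (3.99 to 4.48), and 28.2 CPM of Id2, 4.60 times (4.02 to 5.28), but Smad6 was then at 1.71 times (1.39 to 2.11) and Acvr1 at 1.80 times (1.60 to 2.02).

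**Figure D4:**
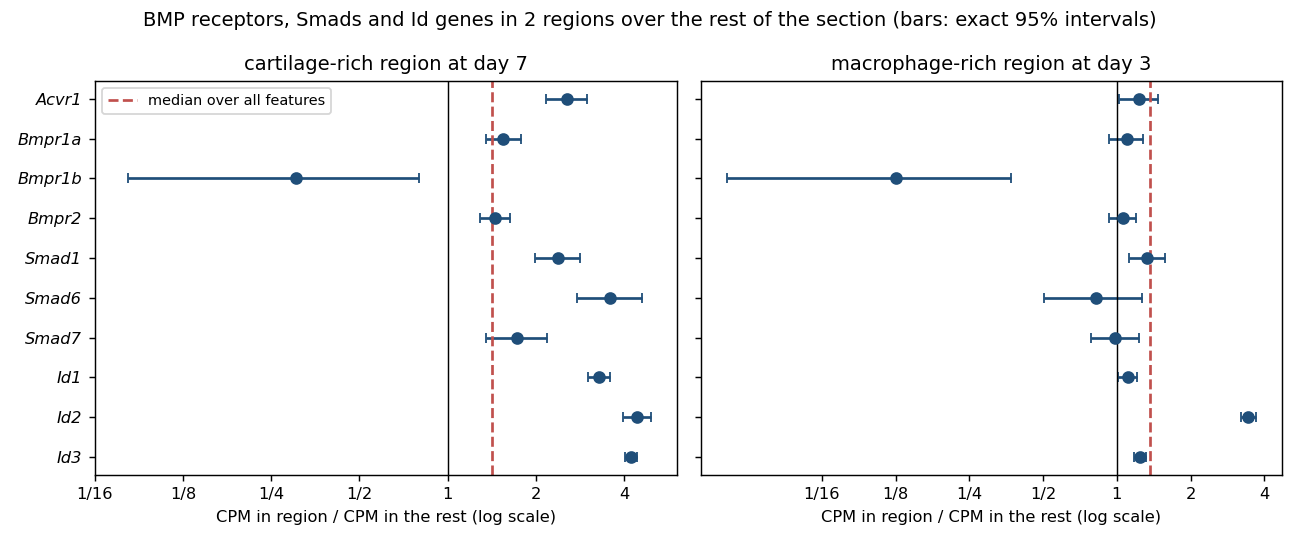
Ratio of CPM inside a region to CPM in the rest of its section (x axis, log scale) for each of the 10 genes, with exact 95% intervals, for the cartilage-rich region at day 7 (left) and the macrophage-rich region at day 3 (right); the dashed line is the median over all features, 1.42 and 1.37. On the left all genes but Bmpr1b lie right of the dashed line, with Smad7, Bmpr1a and Bmpr2 nearest to it. On the right Id2 alone lies right of the dashed line, and Bmpr1b lies below 1 in both.

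Among day 7 spots binned by their cartilage RNA, the Id genes were higher in each higher bin. Spots of at least 1000 UMIs were binned by their chondrogenic CPM, at limits of 300, 1000, 3000, 10000 and 30000. Id3 had 102 CPM (97.2 to 107) in the lowest bin of 1025 spots, then 138, 223, 404 and 533, and 644 CPM (563 to 732) in the highest bin of 29 spots. Id2 went from 19.0 to 30.8, 43.2, 72.7, 129 and 153 CPM, and Id1 from 43.6 to 49.9, 63.7, 95.9, 168 and 183 CPM. No bin broke the upward order of the 3 Id genes, though the last step lay within the intervals for Id1 (147 to 191 against 142 to 233) and Id2. Smad6 had 5.26, 5.76, 8.47, 12.1, 25.2 and 25 CPM, so its climb came in the upper bins. Acvr1 had 15.9, 17.3, 31.0, 41.4, 32.4 and 38.8 CPM, and Smad1 16, 16.9, 20.4, 32.7, 31.7 and 36.1 CPM. Neither had a step beyond counting error above the bin of 3000 to 10000 CPM. The highest bin rested on 14 UMIs of Acvr1, 13 of Smad1 and 9 of Smad6. Bmpr2 differed little, with 53.6 CPM in the lowest and 69.3 in the highest bin. The share of myofibre UMIs was 20.3% in the lowest bin and 3.93% in the highest, MSC markers were at 5019 CPM in the lowest bin and 48958 in the highest, osteogenic markers at 228 and 4275 CPM, and their part in these values was not tested. The bins were chosen after the data were seen.

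**Figure D5:**
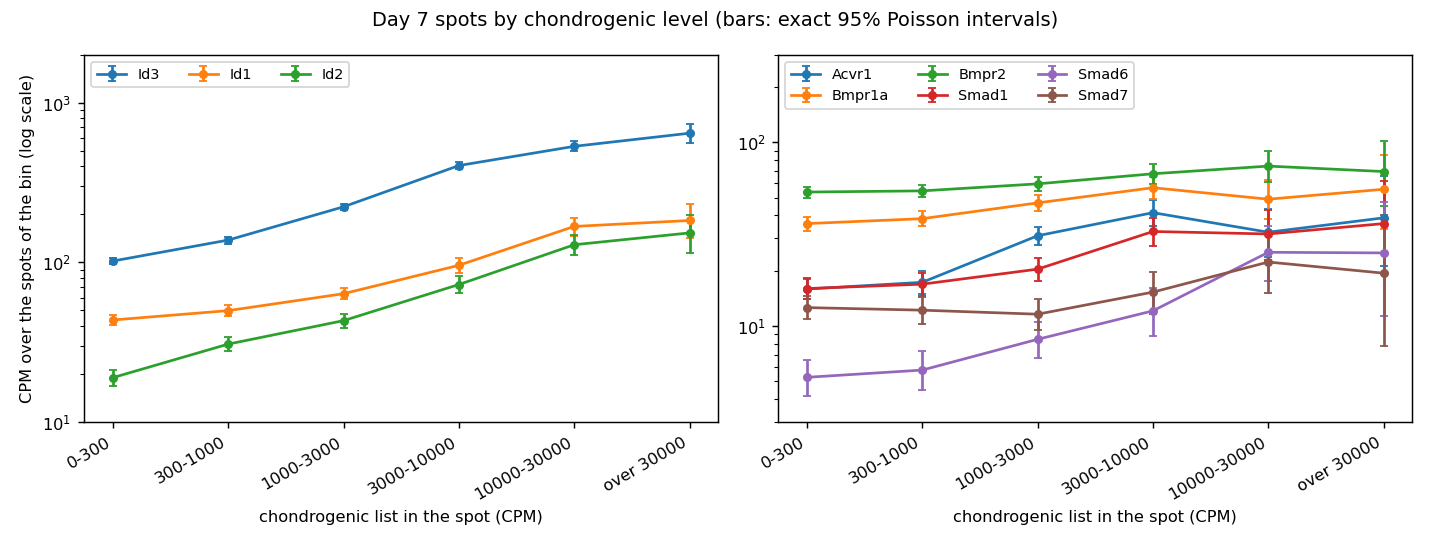
Day 7 spots binned by their level of the chondrogenic list (x axis, CPM) and the level of each gene over the spots of a bin (y axis, CPM, log scale), with exact 95% Poisson intervals; Id genes on the left, receptors and Smads on the right, Bmpr1b left out for its low counts. Id3 goes from 102 to 644 CPM from the lowest to the highest bin, and Bmpr2 from 53.6 to 69.3 CPM.

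The macrophage-rich region of day 3 held high Id2 levels, while Id1 and Id3 there depended on how spots were grouped. This region of 282 spots (9.31%) was led by Mmp12, Dhrs9, Il1rn and Spp1 and held 17420 CPM of monocyte/macrophage markers against 7587 in the rest. Id2 had 187 CPM there and 54.4 elsewhere, a ratio of 3.44 (3.20 to 3.70), and 27.8% of the section's Id2 UMIs lay in this region, which held 10.1% of all UMIs. Id3 had 214 against 173 CPM (1.24, 1.17 to 1.32) and Id1 98.3 against 88.8 (1.11, 1.01 to 1.21), both under the median ratio over features of 1.37. Id2 alone of the 10 passed 1.5-fold, where 41.9% of 13143 features did, so the share of the 10 genes was under that of all features. Among spots with under 10% myofibre UMIs the ratio of Id2 was 2.11 (1.96 to 2.27), with 187 against 88.9 CPM, and those of Id3 (0.928, 0.872 to 0.987) and Id1 (0.846, 0.771 to 0.926) were below 1. There 1 of the 10 passed 1.5-fold, beside 20% of features. A finer grouping gave other values: in its macrophage-richest region of 122 spots Id2 was at 149 against 61.9 CPM (2.41, 2.20 to 2.64), but Id1 at 153 against 85.2 (1.80, 1.65 to 1.96) and Id3 at 317 against 167 (1.90, 1.79 to 2.02), so all 3 passed 1.5-fold there. The median ratio over all features was 1.37 in that region. The share of features passing 1.5-fold was not taken for it, so the count has no background beside it. In the region of 282 spots Bmpr1b had 3 UMIs, 0.531 against 4.24 CPM (0.125, 0.0256 to 0.371). Another region of day 3, region 2, of 514 spots led by Dynap, Tnn and Ptn, was close in macrophage markers (15071 CPM) and held all of the Id genes at high levels, with Id1 at 134 against 74.3 CPM (1.81, 1.71 to 1.91), Id2 at 121 against 49.3 (2.45, 2.30 to 2.62) and Id3 at 258 against 148 (1.74, 1.67 to 1.81). The macrophage-rich region of day 1, of 510 shallow spots with a median of 1230 UMIs, showed the split seen in the 282 spots: Id2 was at 55.2 against 16 CPM (3.45, 2.58 to 4.55), while Id3 was at 71.6 against 93.2 (0.768, 0.608 to 0.958) and Id1 at 50 against 62.1 (0.805, 0.607 to 1.05). At day 7, region 8, the richest in these markers at 4577 CPM, did not have high Id2, at 32.7 against 38.3 CPM (0.853, 0.736 to 0.984). The ratios of Id1 (0.663, 0.584 to 0.751) and Id3 (0.683, 0.637 to 0.733) were lower still. Region 8 of day 7 held 167630 CPM of myofibre markers, where the day 3 region of 282 spots held 11056 CPM.

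Other regions showed the genes apart from each other. Region 8 of day 3, of 73 spots where Cfd and Cidec of fat were among the leading genes, and with 4018 CPM of tendon markers, had 430 CPM of Id3 against 174 in the rest (2.47, 2.17 to 2.80). Id1 (46.9 against 90.2 CPM, 0.519, 0.345 to 0.752) and Id2 (30.1 against 68.2 CPM, 0.442, 0.262 to 0.699) were lower there, so Id3 could be high where the other Id genes were not. In region 7 of day 1, 186 spots led by the fat genes Pck1, Cyp2e1 and Cidec, all 3 were the highest of that day, with 242 CPM of Id3, 150 of Id1 and 57.6 of Id2. Bmpr1b and Smad7 were highest at day 3 in region 1, of 564 spots led by Igha, Igkc and Saa1, with 8.98 and 25.9 CPM, where Id2 (12.8 CPM) and Id3 (90.7 CPM) were the lowest of that day. That region had 198155 CPM of myofibre markers, against 94508 over the section. Regions of the uninjured section differed too. Id1 was 33.6 CPM in region 2, led by the slow myofibre genes Myh7 and Tnnc1 and the richest in endothelial markers, and 20.1 CPM elsewhere (1.68, 1.48 to 1.90). Id2 there ranged from 2.47 CPM in region 1 (0.350 times the rest, 0.215 to 0.542) to 10.5 CPM in region 4 (2.15, 1.66 to 2.76).

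Over the 29 regions the levels of some of the 10 genes went together. Pearson's r of log2(CPM + 1) was 0.86 for Acvr1 with Smad1, 0.85 for Id1 with Id3 and for Id2 with Id3, and 0.84 for Id1 with Id2. Bmpr1a and Bmpr1b stood outside, with r between -0.30 and 0.37 to each of the remaining genes. Regions of a section share a library, and regions differ in their muscle RNA, so r describes these regions and has no p-value. Id2 had r of -0.89 with the myofibre markers, 0.93 with the osteogenic markers (a list that holds Spp1), 0.88 with the cell cycle genes and 0.85 with the monocyte/macrophage markers, and Id3 0.83 with the tendon markers. The genes with the most similar pattern to Id3 among those with a mean of at least 5 CPM were Galk1, Gmds, Tspan4, Ltbp2 and Ier5l (r 0.93 to 0.94). For Id2 they were Galk2, Tns3, Marcksl1, Anapc1 and Sept9 (0.96 to 0.97), and for Id1 Swi5, Tomm40, Ap1s1, Tmem29 and Mcm5 (0.87 to 0.93). For Acvr1 they were Cnn3, Dpysl3, Plod2, Emilin1 and Slc44a1 (0.92 to 0.93), for Bmpr2 Arhgap35, Mmp14, P4ha1, Gatad2b and Prrx1 (0.83 to 0.88), and for Bmpr1a Ehbp1, Sec23a, Laptm4b, Trim32 and Zim1 (0.78 to 0.85). Smad1 was nearest to Skil, Acvr1, Sgpp1, Panx1 and Csgalnact1 (0.83 to 0.87), Smad6 to Ltbp3, Aebp1, Stk38l, Ext2 and Fads2 (0.84 to 0.86), and Smad7 to Smad5, Irgm2, Fos, Aff1 and Susd6 (0.79 to 0.85). Bmpr1b was nearest to Thpo, Mllt11, Capn3, Pdlim5 and Art1 (0.72 to 0.83). Pdlim5 lies 70.0 kb from Bmpr1b (chr3:141837135-142169585) in the annotation and had 294, 213, 261 and 263 CPM, and whether reads of either gene were counted for the other was not tested.

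Between single spots the relations were weak. With spots thinned to 2000 UMIs, Spearman's coefficient at day 7 was 0.0922 for Id1 with Id3 and 0.0995 for Id2 with Id3, too low to be read as a finding in such sparse counts. The coefficient was 0.304 for Id3 with the MSC markers at day 7 and 0.255 for Id2 with the monocyte/macrophage markers at day 3. Given the myofibre share of the spot they were 0.110 and 0.0536. Spots of a section share a library and adjoin each other, so these values are descriptions.

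Bmp4 RNA did not share the order of days of the Id genes. Bmp4 had 9.48 CPM at day 0 (8.59 to 10.4), 2.68 at day 1 (1.96 to 3.59), 4.99 at day 3 (4.42 to 5.61) and 9.49 at day 7 (8.58 to 10.5), so it was lowest at day 1, when Id3 was already 2.73 times its day 0 level. Within day 7 it was lower in the cartilage-rich region, at 6.26 against 9.83 CPM (0.637, 0.407 to 0.955). Id3 in spots with and without a Bmp4 UMI was at 40.2 and 32.0 CPM at day 0 (1.26, 1.11 to 1.42), 159 and 90.3 at day 1 (1.76, 1.32 to 2.31, on 42 spots with Bmp4), 197 and 174 at day 3 (1.13, 1.06 to 1.2) and 194 and 184 at day 7 (1.05, 0.984 to 1.12). Spots with Bmp4 were also deeper, with medians of 14754 against 11731 UMIs at day 7. The transgene RNA ends in a viral polyadenylation signal, and whether its reads were counted as Bmp4 is not settled here.

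The rest of the pathway was followed in 6 lists of 61 genes, 55 of which had at least 50 UMIs. At least 2-fold higher were 10 at day 1 (18.2%), 15 at day 3 (27.3%) and 21 at day 7 (38.2%), beside the 18.2%, 31.8% and 31.0% of all features. At least 2-fold lower were 13 (23.6%), 8 (14.5%) and 1 (1.82%), beside 11.2%, 7.37% and 1.49% of all features. The median log2 ratio was -0.16, 0.23 and 0.73, beside 0.17, 0.57 and 0.65 over all features, so at days 1 and 3 the pathway lists held a larger share of lower genes than all features did. CPM values below are in the order of days 0, 1, 3 and 7.

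Among the 10 other receptors and co-receptors none was 2-fold higher before day 7. Neo1, neogenin, a co-receptor partner, had 20.8, 14.4, 25.1 and 72.5 CPM, and Tgfbr3 (betaglycan) 25.1, 23.1, 24.1 and 53.0 CPM. Acvr2b, a type II receptor, had 0.935, 1.25, 1.07 and 1.89 CPM. The co-receptors Hjv (470, 218, 190 and 355 CPM), made by muscle, and Rgma (35.0, 14.3, 19.0 and 47.6 CPM) were at less than 0.5 times day 0 at day 1. In the cartilage-rich region Neo1 was 4.96 times the rest (4.59 to 5.34) and Hjv 0.217 times (0.194 to 0.242). The receptor-regulated Smads differed among themselves. Smad5 (24.2, 28.7, 52.6 and 41.3 CPM) went with Smad1, and Smad9 had 2 UMIs at day 0 and 49 at day 7. The TGF-beta Smads were Smad2, at 8.34, 14.3, 19.2 and 16 CPM, and Smad3, at 46.0, 13.9, 54.0 and 32.8 CPM. Smad3 was lowest at day 1, at 0.302 times day 0 (0.263 to 0.346).

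Among 12 regulators, Bambi, a decoy receptor that BMP signals switch on, had 4.22, 3.46, 4.62 and 17.8 CPM, and was 7.12 times the rest (6.14 to 8.25) in the cartilage-rich region. Skil (10.7, 10.1, 38.6 and 29.1 CPM) and Tgif1 (3.51, 23.5, 37.8 and 14.6 CPM), both Smad corepressors, peaked at day 3. Tob1, which holds back BMP Smads, had 263, 62.8, 86.2 and 254 CPM. Other genes known to respond to BMP signals, 11 of 14 of them above the UMI minimum, were 2-fold higher in 5, 6 and 6 cases and 2-fold lower in 2, 2 and 0, beside the same shares of all features as above. Atoh8, a target in several tissues, had 6.22, 7.63, 16.7 and 17.4 CPM. The skeletal factors Runx2 (0.274, 1.37, 10.1 and 9.94 CPM) and Sox9 (3.90, 27.3, 15.6 and 84.5 CPM) were higher on each injured day, and Sp7 and Dlx5, with 1 UMI each at day 0, had 1615 and 172 UMIs at day 7. Junb (9.46, 64.5, 254 and 78.7 CPM), Klf10 (15, 27.8, 62.3 and 27.9 CPM) and Hes1 (19.6, 13.2, 61.4 and 32.4 CPM), which other signals induce as well, were highest at day 3, as were Id1 and Id2. Id4, the remaining gene of the Id family, did not follow the others, with 5.15, 2.5, 1.87 and 9.66 CPM, and Msx1 had 7.84, 2.26, 3.12 and 9.75 CPM. In the cartilage-rich region 9 of these 11 targets were 1.5-fold higher, beside the 46.3% of all features. Sox9 (8.18), Runx2 (8.86), Sp7 (11.2) and Dlx5 (14.9) among them are skeletal genes, and the region was chosen by its cartilage markers. Sp7 is also in the osteogenic list and Dlx5 among the region's leading genes, so the count is not a result about BMP targets. Over all pathway lists 25 of 50 were higher, near the share of all features, and 9 lower, for which no such share was taken. Among the targets were Atoh8 (3.43, 2.90 to 4.05) and Msx1 (2.38, 1.85 to 3.05), and Id4 was at 0.927 times (0.639 to 1.31).

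Among ligands, Bmp2 (4.10, 1.97, 2.83 and 3.87 CPM) and Bmp5 (3.99, 1.61, 1.23 and 5.19 CPM) were low at day 1 like Bmp4, and Bmp7 had 49, 0, 13 and 29 UMIs. The joint-linked ligand Gdf5 had 0, 3, 58 and 11 UMIs, and Gdf6 had 1, 0, 45 and 33, or 0.802 CPM at day 3 and 0.789 at day 7. Bmp1, a protease that cuts procollagen and chordin and not a BMP ligand in the strict sense, had 53.6, 24.2, 84.3 and 242 CPM. Of 9 antagonists above the minimum, 1, 2 and 5 were 2-fold higher and 2, 2 and 1 were 2-fold lower on days 1, 3 and 7, beside 18.2%, 31.8% and 31.0% of all features higher and 11.2%, 7.37% and 1.49% lower. Noggin (Nog), which binds BMP4, had 3.90, 2.86, 18.7 and 10.8 CPM, and Bmper 5.04, 4.59, 37.1 and 17.7 CPM, both highest at day 3. Chrdl1 had 2.19, 4.71, 4.28 and 8.18 CPM, Twsg1 34.3, 28.4, 36.8 and 76.4 CPM and Fstl1 146, 40.5, 277 and 430 CPM, all highest at day 7. Sostdc1 had 20, 4, 5 and 29 UMIs. Antagonists of the ligands thus differed in their course.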

How the data were processed

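Spatial RNA was measured in 4 sections of tibial muscle, 1 per day. The authors deposited raw UMI counts per gene and spot, and their header lines give Space Ranger 1.2.0 as the maker, where methods and labels give other versions. The submitters' processing notes list mm10. Positions of spots and single-cell libraries were not analysed here. The 10 genes, the lists of pathway and marker genes and the comparisons were chosen with earlier results of these data known. All 10 genes are named; pathway genes are named where they had at least 50 UMIs and were 2-fold from day 0 on at least 1 day, and for each of the 10 the 5 genes most like it across regions. A pathway gene that the rule names is not reported here.

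Counts were summed over spots and scaled to CPM, with exact Poisson intervals at 95%. Ratios have exact conditional binomial (Clopper-Pearson) intervals, and a count under 3 UMIs enters a median or a call at 3. A ratio was called at 2-fold between sections and at 1.5-fold between a region and the rest. Within a section, spots were clustered by Leiden into regions (10000 counts per spot, log scale, 2000 variable genes, 30 principal components, 15 neighbours, resolution 0.5, seed 1). Thinning drew 2000 UMIs per spot in 20 draws. No doublet caller or deconvolution was applied, as spots are not cells. Simulated sections of 32285 genes were tested: of 200 changed genes, 96.5% (day 1) to 99.0% (days 3 and 7) came back within 0.5 on the log2 scale. Counts were Poisson draws from the day 0 shares, and the changed genes had at least 50 UMIs at day 0. The draws held no spread between animals and no wider shift in composition, so they checked the calculation only. Clusters came from leidenalg 0.10.2 through Scanpy 1.11.5, intervals from SciPy 1.17.1, tables from pandas 2.3.3 and NumPy 2.4.6 in Python 3.11.15, plots from matplotlib 3.10.9, and factors from R 4.3.3 with edgeR 4.0.16 (TMM) and DESeq2 1.42.0 (size factors). Gene positions and promoter windows are RefSeq's for GRCm38.p6, the assembly also called mm10; all 10 symbols matched.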

Additional observations from a re-analysis of the deposited data

How the results depend on the processing

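With TMM factors the median log2 ratio of the 10 genes was -0.20, 0.45 and 0.46 at days 1, 3 and 7, with size factors -0.18, 0.45 and 0.43, and with a total that leaves out the RNA of mitochondria, haemoglobin and myofibres -0.19, 0.55 and 0.76. The number 2-fold higher became 3 (day 3) and 2 (day 7) with TMM or size factors, and 3 at day 7 with the other total, where 18.9% and 18.6% of all features were 2-fold higher at day 3 with TMM and size factors, 14.1% and 13.7% at day 7, and 20.3% at day 7 with the other total. Of the 10, 1 gene, Bmpr1a, was then 2-fold lower at day 3 with TMM or size factors. In that order of scalings, Bmpr2 at day 3 turned to -0.43, -0.44 and -0.34 on the log2 scale and Smad6 at day 3 to -0.16, -0.16 and -0.06, and Bmpr2 at day 7 turned to -0.16 and -0.19 with TMM and size factors. Leaving out spots under 1000 UMIs changed no count or median of the 10 genes by more than the limits set. Dropping the filter could not change them, as all 10 genes pass it. Without the filter, though, the median over all features went from 0.17 to 1.39 at day 1 and from 0.57 to -0.36 at day 3, and the share 2-fold higher from 18.2% to 58.9% and from 31.8% to 17.1%, since features with under 3 UMIs in both sections enter at 3 and their ratio is then that of the section totals.

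Alternatives chosen after seeing the data moved values too. In spots with 10 to 25% myofibre UMIs the number 2-fold higher was 0, 3 and 2, the number 2-fold lower at day 1 was 1 (Acvr1), the medians were -0.32, 0.67 and 0.40, and at day 3 Bmpr2 was at -0.02 and Smad6 at -0.16. Without the cartilage-rich region the day 7 median was 0.83.

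For regions, clustering at resolution 1 put 3 genes (Id1, Id2 and Id3) over 1.5-fold in the macrophage-rich region of day 3 in place of 1. The median over all features there was 1.37, and no share of features passing was taken at that resolution. Spots under 10% myofibre UMIs put 5 in the cartilage-rich region in place of 8. With that other total Acvr1, Id1 and Id3 in the macrophage-rich region turned to 0.982, 0.884 and 0.992, and in spots under 10% myofibre UMIs Id1 and Id3 turned to 0.846 and 0.928. In the cartilage-rich region Bmpr1a (1.15) and Smad7 (1.27) fell under 1.5-fold with that total, and Acvr1 (1.15) and Bmpr1a (1.22) at resolution 1. Bmpr1a (1.31) also did in the top 10% of spots by their share of chondrogenic UMIs. At resolution 1 Bmpr1b had 0 UMIs in the cartilage-rich region, so no ratio is given for it. Thinning to 4000 UMIs gave Spearman coefficients of 0.150 (Id1 with Id3), 0.160 (Id2 with Id3), 0.401 (Id3 with MSC markers) and 0.351 (Id2 with monocyte/macrophage markers). The cause of these shifts was not tested.

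No paired analysis was possible because each day had 1 section. Depth limits Bmpr1b and Smad6 most, at 33 and 48 UMIs in the day 1 section.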
